A study of Mus musculus with 2 samples.

Results

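The cytosolic ribosomal protein genes are the protein-coding genes whose symbol starts with Rpl (large subunit) or Rps (small subunit) followed by a digit. Of 97 such symbols in the RefSeq gene table of mouse genome build GRCm38, 19 were left out: the ribosomal protein S6 kinases, the binding proteins and the like-genes. The rule left 78 genes among 21883 protein-coding genes, 46 of the large subunit and 32 of the small subunit. No measured value entered this choice. Of the 78, 5 carry the suffix of a retrocopy or a related entry (Rpl34-ps1, Rpl31-ps12, Rpl37rt, Rps27rt and Rps23rg1), and setting these apart from the other 73 was decided after their counts had been seen.

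The study asked whether loss of Gabra3, which encodes a subunit (alpha 3) of GABA-A receptors, the chloride channels opened by the inhibitory transmitter GABA, alters DNA accessibility in the retina. It used ATAC-seq, in which the transposase Tn5 cuts open DNA and inserts sequencing adapters there, so that insertions mark accessible sites. The Gabra3 knockout group was 1 library and the wild-type group 1 library, both from neural retina, flash-frozen, of adult C57BL/6 littermates and both from 20000 nuclei sequenced with single-end reads of 75 bp. The sources used here do not give the design of the knockout allele, the sex of the mice or the number of animals behind each library.

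Ribosomal proteins and ribosomal RNA build the ribosome, the machine that makes every cellular protein. The subunits need their proteins in equal numbers, so these genes are active in nearly every cell type, photoreceptors included, and their messages are among the most abundant in a cell. Most of their messages begin with a cytidine and a run of pyrimidines, the 5′ terminal oligopyrimidine (TOP) start, which lets mTOR signalling raise or lower translation of the whole set, and many of the genes carry small nucleolar RNA (snoRNA) genes in their introns.

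The stretches from 60 bases before to 30 bases after the annotated start are shown for 6 genes that span the range found here: Rpl27a and Rpl15 had the most insertions, Rps6 is the substrate of the S6 kinases, Rps2 had its open region inside its annotated span, and Rpl6 and Rps4x lay on either side of the threshold of 100 insertions. Sequences are from RefSeq, build GRCm38.p6, 5′ to 3′ on the gene's own strand. Capitals mark a cytidine followed by at least 4 pyrimidines that begins within 5 bases of the annotated start; Rpl6 and Rps4x have none. They lie at chr7:109519135-109519224 (plus strand, Rpl27a), chr14:18270957-18271046 (minus strand, Rpl15), chr4:86857338-86857427 (minus strand, Rps6), chr17:24720003-24720092 (plus strand, Rps2), chr5:121204441-121204530 (plus strand, Rpl6) and chrX:102189362-102189451 (minus strand, Rps4x).
Rpl27a: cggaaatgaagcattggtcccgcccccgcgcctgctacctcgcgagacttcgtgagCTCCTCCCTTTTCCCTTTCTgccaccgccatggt
Rpl15: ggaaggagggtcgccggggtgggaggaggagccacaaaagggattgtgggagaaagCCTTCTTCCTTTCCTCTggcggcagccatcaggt
Rps6: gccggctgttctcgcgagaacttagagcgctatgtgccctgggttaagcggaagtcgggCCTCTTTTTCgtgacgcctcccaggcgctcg
Rps2: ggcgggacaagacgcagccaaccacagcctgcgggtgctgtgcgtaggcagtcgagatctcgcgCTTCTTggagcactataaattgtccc
Rpl6: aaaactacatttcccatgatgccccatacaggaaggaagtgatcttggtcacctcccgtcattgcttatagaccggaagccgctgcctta
Rps4x: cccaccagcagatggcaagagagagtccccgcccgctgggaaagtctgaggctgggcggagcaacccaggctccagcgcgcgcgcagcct

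The libraries had like depth. The knockout library held 9038110 reads and 7646373 insertions after filtering, against 9170838 reads and 7635799 insertions for the wild-type library. Of autosomal insertions, 18.8% in knockout retina and 19.6% in wild-type retina fell in the 37049 open regions called on both libraries together. The body of Gabra3 (chrX:72432676-72656919) held 121 insertions in knockout retina and 126 in wild-type retina (log2 ratio -0.06, interval -0.43 to 0.31), and, with the deleted part unknown here, this count does not check the genotype. As a check of the tissue, 11 of 12 rod and cone marker genes held an open region inside or within 500 bp of their span, against 63.9% of all genes. Opn1mw was the exception, and Gnat1 held 137 (knockout) and 157 (wild type) insertions. Within 500 bp of the gene end with more insertions, 9 of the 12 held an open region, against 50.6% of all genes. At that end 6 had 100 or more insertions summed over both libraries, against 34.3% of all genes. Of 12 markers of other tissues, 2 (Apoa1 and Ttn) held an open region inside or within 500 bp of their span. Alb had 0 insertions in knockout retina and 1 in wild-type retina. With 1 library per genotype there is no replicate check, no test and no p; ratios compare these libraries and not the genotypes. Every interval is an exact 95% Clopper-Pearson interval and covers counting error alone.

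Ribosomal protein promoters stood open in both retinas, at a level well above that of most genes. A promoter here is a window reaching 500 bp to each side of whichever end of the gene held more insertions. The end was chosen alike for every gene, so all windows have the same length. The median ribosomal protein promoter held 84.5 insertions in knockout retina and 93 in wild-type retina, against a median of 13 insertions over all protein-coding genes in each library. With both libraries summed, 65 of the 78 (83.3%) held 100 or more insertions, where 34.3% of all promoters reached that level. An open region touched the window of 70 of the 78 (89.7%), against 50.6% of all genes. The tissue is a mixture of cell types, so a site open in more nuclei and a site more open in each nucleus cannot be told apart.

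**Figure D1:**
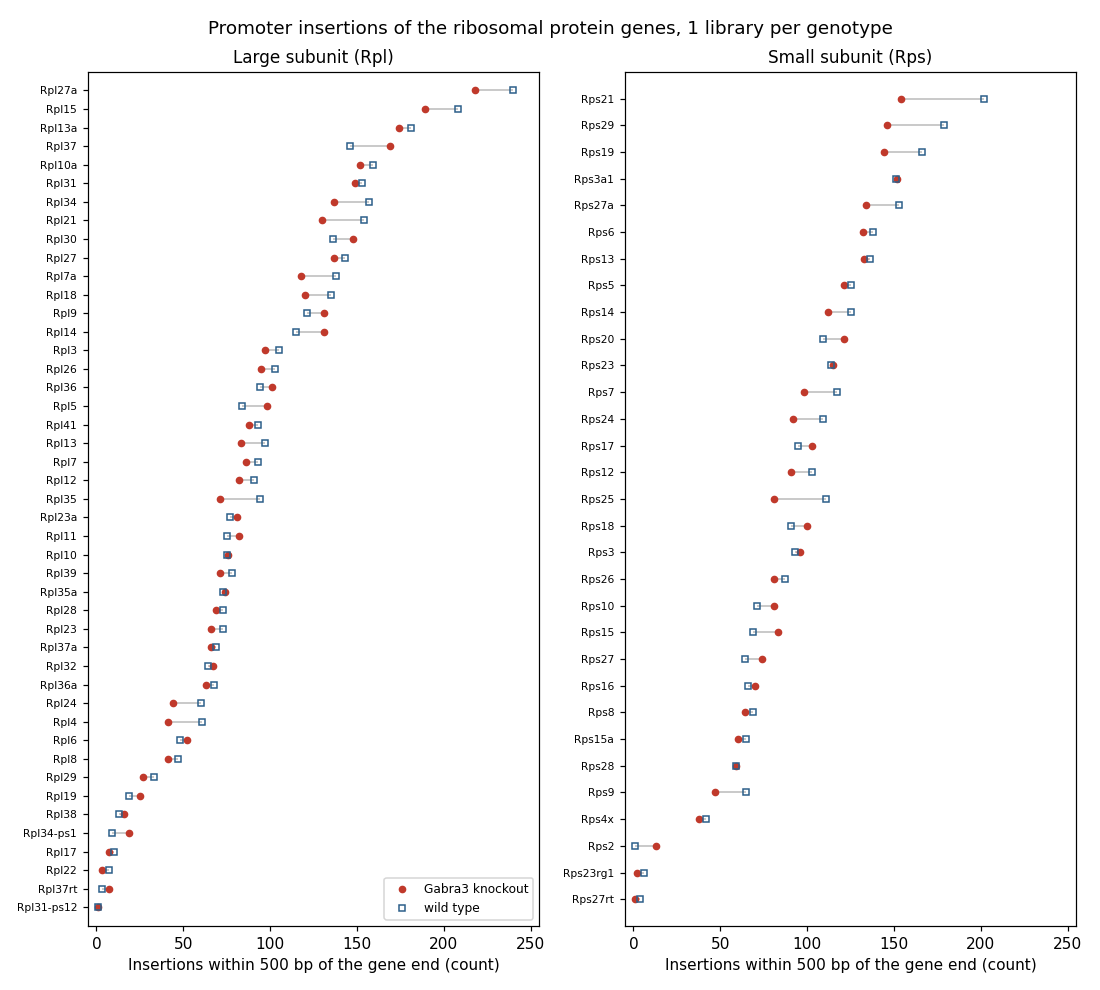
Insertions within 500 bp of the gene end for 76 of the 78 genes, large subunit on the left and small subunit on the right, in knockout retina (filled circles) and wild-type retina (open squares), with a grey line joining the pair. Symbols of a pair lie close together in most rows, from Rpl27a at 218 (knockout) and 240 (wild type) insertions down to Rpl31-ps12 at 1 (knockout) and 1 (wild type).

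The set was high but not at the top of the genome. Of the 78, 71 lay above the median of all promoters, 46 in the top 25% and 16 in the top 10%, while 0 reached the top 1%. The highest, Rpl27a, held 458 insertions summed over both libraries and ranked 295 of 21883; the highest promoter of any gene held 944. The genes are also short, with a median span of 3151.5 bp against 17170 bp for all genes, and genes outside the set that span 1 to 6 kb had a median of 6 insertions in each library, and 23.5% of them reached 100.

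**Figure D2:**
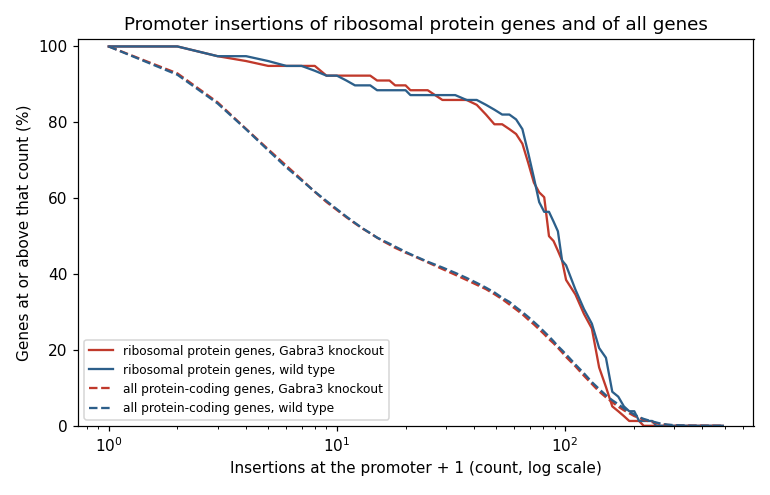
Share of genes (vertical axis, %) whose promoter held at least the number of insertions on the horizontal axis (plus 1, log scale), for ribosomal protein genes (solid) and all protein-coding genes (dashed) in the knockout (red) and wild-type (blue) libraries. The ribosomal protein curves stay above 80% to about 40 insertions and then fall steeply, and the curves of the libraries nearly coincide.

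Among the large subunit genes, Rpl27a (chr7:109519195-109522369) held 218 insertions in knockout retina and 240 in wild-type retina. Rpl15 (chr14:18267823-18270986) held 189 insertions in knockout retina and 208 in wild-type retina. Rpl13a, whose product in humans also acts in silencing of inflammatory messages after its release from the ribosome, held 174 in knockout retina and 181 in wild-type retina. These were the strongest promoters of the large subunit, and in each the wild-type count was the higher by a margin within its counting interval. Rpl37 held 169 (knockout) and 146 (wild type), and Rpl10a held 152 (knockout) and 159 (wild type) insertions. Rpl5 and Rpl11, which with 5S ribosomal RNA form the complex that binds and restrains Mdm2, held 98 and 82 insertions in knockout retina against 84 and 75 in wild-type retina. Both sat near the middle of the set. Rpl24, the gene disrupted in Belly spot and tail mice, was low among the open promoters at 44 insertions in knockout retina and 60 in wild-type retina.

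Among the small subunit genes, Rps21 (chr2:180257379-180258444) was highest with 154 insertions in knockout retina and 202 in wild-type retina. Rps29 held 146 in knockout retina and 179 in wild-type retina, and Rps19, the gene most often mutated in human Diamond-Blackfan anaemia, held 144 (knockout) and 166 (wild type). Rps3a1 held 152 (knockout) and 151 (wild type), so the strongest small subunit promoters ranged from about equal to lower in knockout retina. Of the reads in the Rps29 window, 180 of 830 had a mapping quality under 10 and were not counted, far above the 1.16% over all member windows, so its level rests on the reads that could be placed. Rps27a, whose product is made as a fusion of ubiquitin with a ribosomal protein, held 134 (knockout) and 153 (wild type). Rps6 held 132 (knockout) and 138 (wild type) insertions, close to balance. Rps3, which sits at the entry of the messenger RNA channel, held 96 (knockout) and 93 (wild type).

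The subunits did not stand apart in level. Without the retrocopy entries, 43 large subunit promoters had a median of 83 insertions in knockout retina and 93 in wild-type retina, and 30 small subunit promoters had medians of 97 (knockout) and 106 (wild type). The 28 genes with an annotated snoRNA gene inside their span had a median of 185.5 insertions summed over both libraries, and the other 45 had 191. No difference by subunit or by snoRNA content was large beside the range within each group. The genes are spread over 19 chromosomes, with 13 on chromosome 7 and 7 on chromosome 11, and no window overlapped that of another member.

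The X-linked genes are Rpl10, Rpl39, Rpl36a and Rps4x; the first 3 have autosomal retrocopies that stand in for them in the male germ line or elsewhere. Rpl10 held 76 insertions in knockout retina and 75 in wild-type retina, Rpl39 held 71 (knockout) and 78 (wild type), Rpl36a held 63 (knockout) and 68 (wild type), and Rps4x held 38 (knockout) and 42 (wild type). All 4 lay below the median of the set, and together they held 248 insertions in knockout retina and 263 in wild-type retina (log2 ratio -0.03, interval -0.28 to 0.23). The number of X chromosomes per nucleus, which the sex of the mice sets, is unknown here.

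Scaled to autosomal insertions in open regions, the knockout and wild-type libraries were close at ribosomal protein promoters. Summed over the 78 windows there were 6972 insertions in knockout retina and 7386 in wild-type retina, a log2 ratio of -0.02 (interval -0.07 to 0.02) scaled to autosomal insertions in open regions. Over the 65 genes with at least 100 insertions the median log2 ratio was -0.02, beside 0.02 over the 7506 promoters of all genes at that level. The standard deviation of the ratio was 0.19 in both sets. Scaled to all autosomal insertions instead, every ratio drops by 0.06, the sum becomes -0.09 (interval -0.13 to -0.04), and the medians become -0.08 for the set and -0.04 for all promoters.

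None of the 65 differed by 1.5-fold. Of all promoters at that level, 0.52% were 1.5-fold or more higher in knockout retina and 0.226% were 1.5-fold or more lower, and at 2-fold both the set and all promoters gave 0 (0%). Ratios above 0 were found at 27 of the 65 and ratios below 0 at 38; over all promoters 45% were below 0. The interval included 0 for 64 of the 65 (98.5%), while 2.78% of all promoters had an interval without 0. A share this near to the background is no result about the set. Large subunit genes without retrocopies had a summed log2 ratio of -0.01 (interval -0.08 to 0.05) and small subunit genes one of -0.04 (interval -0.12 to 0.03).

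**Figure D3:**
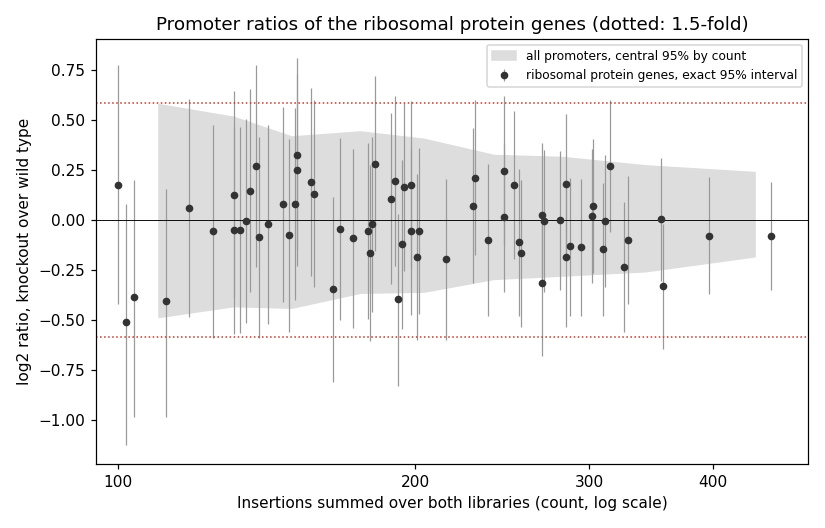
Log2 ratio of knockout over wild-type insertions (vertical axis) against insertions summed over both libraries (horizontal axis, log scale) for the 65 genes with at least 100; points are genes, bars exact 95% intervals, the grey band the central 95% of all promoters at like counts, dotted lines 1.5-fold. All points lie between -0.51 and 0.32, inside the dotted lines, and the grey band narrows as counts grow.

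The largest ratios in each direction stayed small. Rps15 held 83 insertions in knockout retina and 69 in wild-type retina (log2 ratio 0.32, interval -0.15 to 0.81). Rpl5 had a log2 ratio of 0.28, Rpl37 and Rps27 one of 0.27, and Rps10 one of 0.25, each with an interval that includes 0. At the other end, Rpl4, whose product lines the exit tunnel for the growing protein, held 41 insertions in knockout retina and 61 in wild-type retina (log2 ratio -0.51, interval -1.12 to 0.08). Rps9 had 47 insertions in knockout retina and 65 in wild-type retina, a log2 ratio of -0.40. Rps25 had 81 (knockout) and 111 (wild type) insertions, a ratio of -0.39, and Rpl24 and Rpl35 had log2 ratios of -0.38 and -0.34. The 71 insertions of Rpl35 in knockout retina stood against 94 in wild-type retina. These are mostly genes with fewer insertions, where counting error is widest. Rps21 was the exception to the intervals that include 0, at -0.33 (interval -0.64 to -0.02); counted over its open region instead of its window, the ratio was -0.30 (interval -0.61 to 0.00).

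Several of these windows held an end of another gene; which end of that gene it was, start or last base, was not checked by strand. Of the 78 windows, 15 (19.2%) held an end of another protein-coding gene, against 12.7% of all windows. Rpl15 shares its window with Nkiras1, Rpl37 with Card6, Rps27a with Clhc1, Rpl7a with Med22, Rpl9 with Lias, Rps25 with Trappc4, Rpl36 with Micos13 and Rps18 with Vps52. Each partner window given below overlaps the window of its member. Like counts follow from that overlap and are no separate observation. A window centred on the partner held 184 insertions in knockout retina and 202 in wild-type retina at Nkiras1. It held 168 (knockout) and 146 (wild type) at Card6, and 91 (knockout) and 119 (wild type) at Trappc4. The insertions of such a pair cannot be told apart by gene, so the ratios of Rpl37 and Rps25 cannot be assigned to either gene alone. The same holds for Rpl4, the lowest ratio of the set, which shares its window with Zwilch: the partner window held 53 insertions in knockout retina and 68 in wild-type retina (log2 ratio -0.30), and the open region of Rpl4 had a log2 ratio of -0.34 (interval -0.90 to 0.21). It also holds for Rps27, which shares its window with Rab13, at 76 insertions in knockout retina and 66 in wild-type retina in the partner window. Without the 15 genes, the sum over the remaining 63 gave a log2 ratio of -0.03 (interval -0.09 to 0.02).

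The insertions of the set gathered tightly around the start of transcription. RefSeq gives a start and strand for 58 of the 78, and 52 of those starts (89.7%) lay within the counted window, against 67.8% for all genes with one. All genes here include those with few insertions at either end, and no share among open promoters alone was taken. Over the 52 genes with at least 100 insertions around the RefSeq start, 2260 insertions lay within 100 bp of it in knockout retina and 2429 in wild-type retina. The outer bins of the same width at 900 to 1000 bp held 77 (knockout) and 94 (wild type). The ratio of centre to flank was 29.4 in knockout retina (interval 23.4 to 37.3) and 25.8 in wild-type retina (interval 21.0 to 32.1), against 15.7 (knockout) and 16.1 (wild type) over 6783 other genes at that level. The peak was of like height, at 25.3 insertions per 100 bp per gene in knockout retina and 29.0 in wild-type retina, against 25.1 (knockout) and 26.4 (wild type) at other genes. The flanks were lower, at 0.75 insertions per 100 bp per gene in knockout retina and 0.90 in wild-type retina, against 1.40 (knockout) and 1.42 (wild type) at other genes. Of the insertions within 500 bp of the start, 57% in knockout retina and 59.5% in wild-type retina lay before it.

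**Figure D4:**
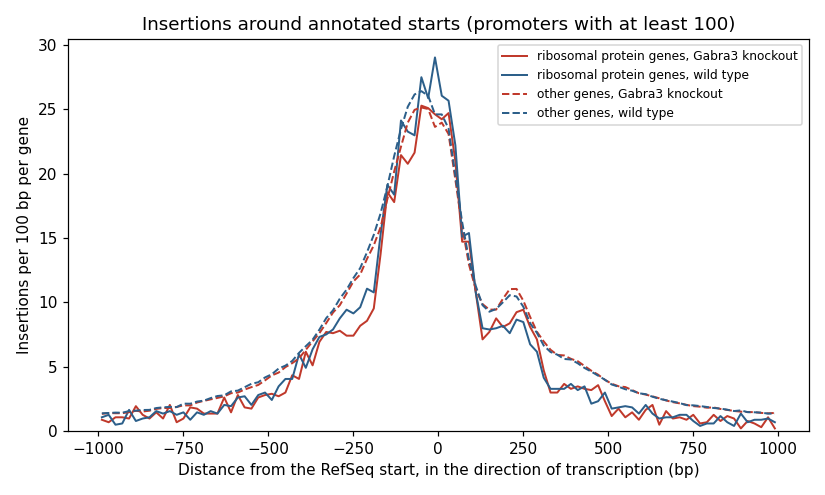
Insertions per 100 bp per gene (vertical axis) by distance from the RefSeq start in the direction of transcription (horizontal axis, bp) for 52 ribosomal protein genes (solid) and 6783 other genes (dashed) in the knockout (red) and wild-type (blue) libraries. The ribosomal protein peak is as high as that of other genes and stands on lower shoulders and flanks.

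Open regions at these promoters had a median width of 750 bp, as did those at all promoters, and held a median of 234 insertions per kb summed over both libraries against 193 per kb. The widest, 1800 bp, overlapped the Rpl7 window but reached beyond it, away from the gene. That region held 189 insertions in knockout retina and 206 in wild-type retina, and the Rpl7 window held 86 (knockout) and 93 (wild type).

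Low counts at the window did not always mean a closed gene. All 73 genes without a retrocopy suffix held an open region inside or within 500 bp of their span, although 8 of them had fewer than 100 insertions in the window; over all 78 the number was 74 (94.9%), against 63.9% of all genes. In 4 the strongest region lay inside the annotated span, outside the window. Rps2 (chr17:24718121-24721927), whose product lies at the messenger RNA entry site, held 13 insertions in the knockout window and 1 in the wild-type window (log2 ratio 3.23, interval 1.02 to 9.17). Around its RefSeq start, 1942 bp inside the span and printed above, it held 120 insertions in knockout retina and 120 in wild-type retina (log2 ratio 0.06, interval -0.32 to 0.44). The uneven window count lay at a gene end away from the start.

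Rpl22 (chr4:152324436-152334082), whose loss in mice blocks a branch of T cell development, held 3 insertions in the knockout window and 7 in the wild-type window, but 118 (knockout) and 139 (wild type) around a start 1290 bp inside. Rpl19 (chr11:98022003-98030493) held 25 (knockout) and 19 (wild type) in the window and 82 (knockout) and 66 (wild type) around a start 4921 bp inside. Rpl17 (chr18:74998978-75003381), which has no RefSeq start in the table used, held 7 (knockout) and 10 (wild type) in the window and 89 (knockout) and 83 (wild type) in its open region. Counted there, all 3 lay within the range of the other open members. Rpl38, needed for skeletal patterning in mice, held 16 (knockout) and 13 (wild type) in the window and 41 (knockout) and 55 (wild type) around a start 762 bp inside, and Rpl29 held 27 (knockout) and 33 (wild type) in the window and 80 (knockout) and 82 (wild type) in its open region.

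**Figure D5:**
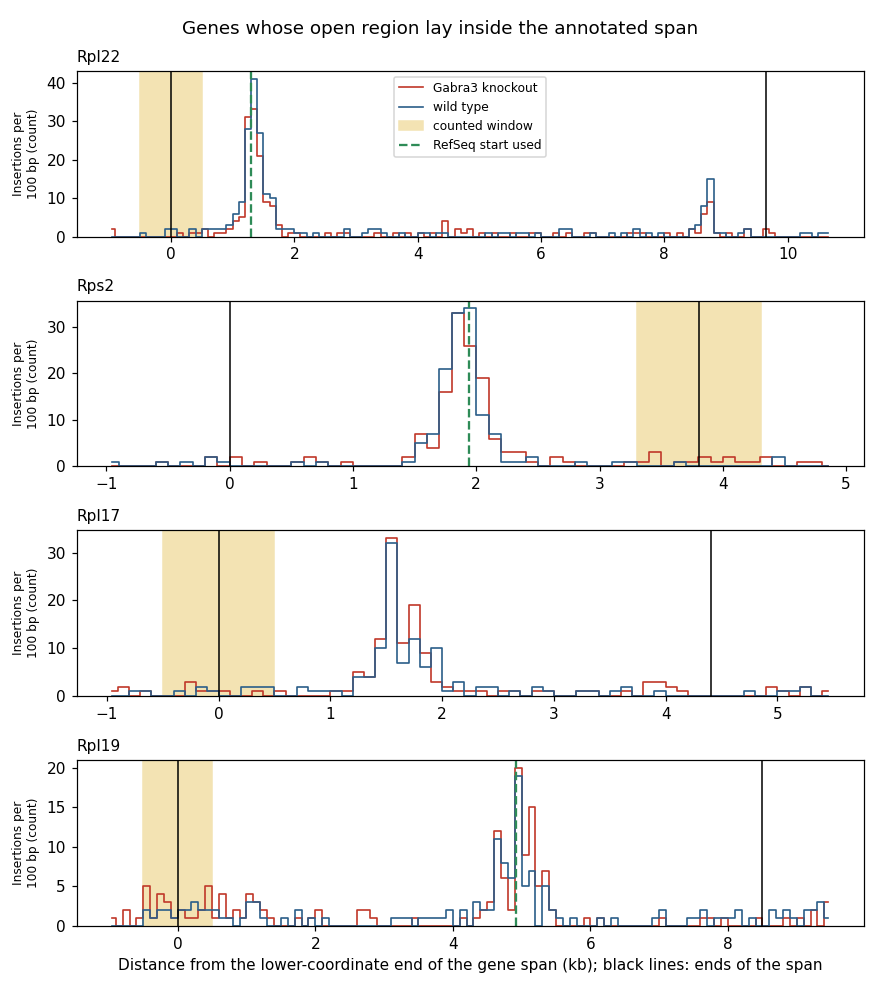
Insertions per 100 bp (vertical axis) along 4 genes, by distance from the end of the gene span with the lower coordinate (horizontal axis, kb), in the knockout (red) and wild-type (blue) libraries; black lines mark the ends of the span, shading the counted window and the dashed green line the RefSeq start where there is one. In each gene the peak stands inside the span and the shaded window holds fewer insertions than the peak in both libraries.

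In 2 further genes the counted window was not at the RefSeq start. Rpl18 had 83 insertions in knockout retina and 107 in wild-type retina around its start, 2604 bp inside the span, and 120 (knockout) and 135 (wild type) in the window that was counted. Rpl41, which encodes the shortest ribosomal protein, had 66 (knockout) and 69 (wild type) around its start. It had 88 (knockout) and 93 (wild type) at the other end, in a window that also holds an end of Zc3h10. Counting every gene at its strongest open region, a choice made after these cases were seen, left 69 of the 78 at 100 insertions or more and a summed log2 ratio of -0.03 (interval -0.07 to 0.02).

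Just inside the threshold of 100 insertions were Rpl6, with 52 in knockout retina and 48 in wild-type retina, and Rpl4. Just outside were Rpl8, with 41 (knockout) and 47 (wild type), and Rps4x. All 4 held an open region.

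The 5 retrocopy entries had few insertions. Rpl34-ps1 held 19 insertions in knockout retina and 9 in wild-type retina, or 28 summed, just above the median of 26 over all promoters, and it was the one entry of the 5 with an open region in its window. Rpl37rt held 7 (knockout) and 3 (wild type), Rps23rg1 held 2 (knockout) and 6 (wild type), Rps27rt held 1 (knockout) and 4 (wild type), and Rpl31-ps12 held 1 (knockout) and 1 (wild type). Together they held 30 insertions in knockout retina and 23 in wild-type retina, too few for a ratio of use (log2 ratio 0.44, interval -0.39 to 1.29). Their parent genes were open: Rps27, which encodes a zinc finger ribosomal protein, held 74 (knockout) and 64 (wild type), and Rpl31 held 149 (knockout) and 153 (wild type). Rps27rt and Rps27 were the most alike of 4 such pairs with a promoter entry for both, and they are printed here from 60 bases before to 30 bases after their starts (chr9:114982710-114982799, minus strand, for Rps27rt and chr3:90213619-90213708, minus strand, for Rps27). Capitals mark the 29 bases they share in these stretches. The longest stretch the pair shares in the full 300 bases of each promoter entry is 38 bases, and before the start it is 10 bases. In the other pairs the longest shared stretch was 12 bases (Rpl31-ps12 and Rpl31), 8 bases (Rpl37rt and Rpl37) and 8 bases (Rps23rg1 and Rps23). The printed shared stretch begins at the annotated start of Rps27rt and 1 base after that of Rps27.
Rps27rt: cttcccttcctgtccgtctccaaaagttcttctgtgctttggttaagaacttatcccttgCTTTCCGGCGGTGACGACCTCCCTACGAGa
Rps27: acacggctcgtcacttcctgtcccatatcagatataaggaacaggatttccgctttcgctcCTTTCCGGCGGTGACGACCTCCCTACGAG

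Sequence elements were counted in the promoters, and none was found in all of them. Of 54 genes without a retrocopy suffix that have a RefSeq promoter entry (250 bases before to 50 after the start), 24 (44.4%) had the pyrimidine start within 5 bases of the annotated start and 11 (20.4%) had it exactly at the start. Over all 17491 promoters the shares were 18.7% and 2.18%, and over the 6835 with at least 100 insertions around the start 19.4% and 2.15%. The ETS core CCGGAAG, bound by factors such as Gabpa, was present on either strand in 21 (38.9%), against 12.3% of all promoters and 23.6% of the open ones. It can be read in the printed stretch of Rpl6. The cAMP response element TGACGTCA was present in 5 (9.26%), against 2.37% and 4.26%. The YY1 core AAGATGGC was present in 4 (7.41%), against 3.25% and 6.16%. The counts of these last elements are small.

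The share was lower than in open promoters for the remaining elements, though the E-box, NRF1 and TATA counts are small. The GC box GGGCGG was present in 32 of 54 (59.3%), against 47.7% of all promoters and 74.0% of the open ones. CCAAT was present in 16 (29.6%), against 38.9% and 41.9%, the E-box CACGTG in 5 (9.26%), against 8.0% and 11.4%, and the palindrome bound by NRF1 in 1 (1.85%), against 1.37% and 2.94%. The TATA box TATAAA, searched before the start on the sense strand, was present in 1 (1.85%), the X-linked Rpl39, against 8.16% and 2.75%. Searched over only 100 bases before the start, the TATA share was 1.85%, against 4.69% of all and 1.01% of open promoters, so its direction rests on 1 gene and the stretch searched. The motifs searched can overlap one another in a promoter, a match is a run of letters and not a bound site, and these shares were not tested. The median GC content was 57.3%, against 57% of all and 63% of open promoters. The median ratio of observed to expected CpG was 0.870, against 0.599 and 0.841.

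Medians of insertions with and without these elements lay within the range of the set and were not tested. The 21 genes with the ETS core had a median of 198 insertions summed over both libraries and the 33 without had 173. With the pyrimidine start within 5 bases the median was 190.5 over 24 genes, and without it 182.5 over 30. With the GC box it was 209.5 over 32 genes, and without it 162.5 over 22.

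Other genes of protein synthesis were measured in the same windows. Among the 78 mitochondrial ribosomal protein genes, which serve the separate ribosome of mitochondria, medians were 69.5 insertions in knockout retina and 72 in wild-type retina, and 53 (67.9%) reached 100, beside 83.3% of the cytosolic set; this gap was not tested. Ribosome biogenesis genes had medians of 92 (knockout) and 92 (wild type), with 34 of 39 at 100 or more, and initiation factors 91 (knockout) and 100 (wild type), with 30 of 41. Elongation factors and other genes with TOP messages had medians of 122 (knockout) and 121.5 (wild type), with 11 of 12 at 100 or more; Tpt1 was highest at 322 insertions in knockout retina and 328 in wild-type retina. Genes that control ribosomal protein synthesis had medians of 78.5 (knockout) and 84 (wild type), with 14 of 20 at 100 or more. Among the members of these 5 lists with at least 100 insertions, 0 differed by 1.5-fold, where 0.52% of all promoters at that level were that much higher and 0.226% that much lower. The summed log2 ratio was 0.00 (interval -0.05 to 0.05) for mitochondrial ribosomal proteins, -0.05 (interval -0.11 to 0.02) for biogenesis, 0.02 (interval -0.04 to 0.09) for initiation, -0.01 (interval -0.11 to 0.09) for elongation and TOP genes and -0.09 (interval -0.18 to 0.00) for the control list, so each interval included 0. Scaled to all autosomal insertions, the control list came to -0.15 (interval -0.24 to -0.06), biogenesis to -0.11 (interval -0.18 to -0.05) and mitochondrial ribosomal proteins to -0.06 (interval -0.11 to -0.01), and these 3 intervals no longer included 0.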

How the data were processed

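ATAC-seq was done on 1 Gabra3 knockout and 1 wild-type library. Reads were processed by the authors on build GRCm38 (mm10) with BWA, Trimmomatic 0.33 and bedtools 2.23.0, per the submitters' processing notes. What each tool did, the BWA version and whether duplicates were removed are not stated there. Each line of the deposited files is 1 aligned read, and the deposited score column is taken as the mapping quality given by the aligner, with no normalization.

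Reads with a score of at least 10 were reduced to 5′ ends, shifted by 4 bp (plus strand) or -5 bp (minus strand) to the insertion site, and counted once per position and strand, which removed 9.41% of such reads in knockout retina and 11.0% in wild-type retina. Open regions were called on both libraries together, from 200 bp windows (50 bp steps) whose count had a Poisson p under 1e-05 given the local mean over 10000 bp or the genome mean, whichever was higher; windows within 150 bp were merged. Gene spans came from the RefSeq gene table of GRCm38.p6; strand and exons were not used here, so the gene end with more insertions was taken, and starts, strands and sequences came from the RefSeq promoter table where it has the gene. Log2 ratios (knockout over wild type) use a pseudocount of 0.5 and are scaled to autosomal insertions in open regions; for the body of Gabra3 they are scaled to all autosomal insertions. No test was run. Depth limits a promoter of 100 insertions to an interval such as that of Rpl6, -0.42 to 0.77 on the log2 scale.

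Genes named in the text are Gabra3 and, of the set, the 10 with most and 8 with fewest insertions, the 5 highest and 5 lowest ratios at 100 insertions or more, the X-linked genes, the 8 shared windows with most insertions, and windows that need a comment. Further genes (Rpl3l and the other like-genes, Rpl5, Rpl11, Rpl24, Rps3, Rps6, Rps27a, Rpl31, Rpl29, Rpl7, Rpl8, Tpt1 and the tissue markers) were named, after their values were seen, for their known role or their place. A few genes and 1 list are not reported here. The members, lists, motifs and rules were chosen with earlier results of these data known. The scripts were tested on simulated data, and used Python 3.11.15, numpy 2.4.6, pandas 2.3.3, scipy 1.17.1 and matplotlib 3.10.9.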

Additional observations from a re-analysis of the deposited data

How the results depend on the processing

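Across 14 alternatives (scaling, mapping quality, duplicates, window width, start, shift, minimum count, and members left out), the numbers of genes at 1.5-fold higher, 1.5-fold lower and 2-fold remained 0. The summed log2 ratio ranged from -0.086 to -0.023 and the median from -0.083 to -0.014. Both moved beyond the interval of the summed ratio only when scaled to all autosomal insertions (-0.086 for the sum, -0.083 for the median). No interval was computed for the median itself. That scaling also moves the median of all promoters to -0.04, and the cause was not tested. Among 11 alternatives the median of summed insertions ranged from 132.5 (250 bp windows) to 236.5 (repeated reads kept), and the genes with at least 100 from 52 (of 63, without shared windows) to 69 (strongest open region). Scaled to all autosomal insertions, the 46 large subunit genes, retrocopy entries included, came to -0.07 (interval -0.13 to -0.01). The 32 small subunit genes, also with retrocopy entries, came to -0.11 (interval -0.18 to -0.04). In the main scaling these same sets had -0.01 (interval -0.07 to 0.05) and -0.05 (interval -0.12 to 0.03). Scaled to all autosomal insertions, biogenesis came to -0.11, the control list to -0.15 and mitochondrial ribosomal proteins to -0.06, each with an interval below 0. Of the motifs, the E-box share became 1.85% (1 of 54) when searched over 100 bases before the start. Over that stretch the E-box was present in 4.88% of all and 7.20% of open promoters. No paired analysis was possible because each genotype has 1 library, and no library could be left out. At 100 insertions, ratios under about 1.5-fold could not be resolved at this depth. Counting at the strongest open region and leaving out the retrocopy entries were added after seeing the data.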

Other observations

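The 7 like-genes left out by the symbol rule, which are paralogs, some of them retrocopies, of ribosomal protein genes, fell into open and closed promoters in both libraries. Rpl36al held 123 insertions in knockout retina and 130 in wild-type retina, about as many as a strong member of the set and more than its X-linked parent Rpl36a at 63 (knockout) and 68 (wild type). The number of X chromosomes per nucleus is unknown, so this is no comparison per gene copy. Of the 7 windows, 2 (28.6%) held an end of another protein-coding gene, whose insertions cannot be told apart. Rpl22l1 held 113 (knockout) and 132 (wild type), close to the 118 (knockout) and 139 (wild type) around the start of Rpl22. Rpl7l1 held 36 (knockout) and 47 (wild type). Rps27l held 6 (knockout) and 10 (wild type) in its window but 129 (knockout) and 114 (wild type) around its RefSeq start. Rpl10l and Rpl39l, whose expression is known mainly from testis, held 1 and 2 insertions in knockout retina and 1 and 2 in wild-type retina. Rpl3l, known from heart and skeletal muscle, held 84 (knockout) and 81 (wild type) at the gene end that was counted but 5 (knockout) and 5 (wild type) around its RefSeq start.

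Ribosomal protein pseudogenes held few counted insertions, as did pseudogenes of any kind. Over 309 annotated pseudogenes with such symbols the median was 2 insertions in knockout retina and 2 in wild-type retina, and 3 (0.971%) held an open region, against 2.08% of 9944 pseudogenes of any kind. The median over those 9944 was also 2 in knockout retina and 2 in wild-type retina, so low counts are not particular to these copies. The highest, Rps4l, held 45 insertions in knockout retina and 39 in wild-type retina, as many as its X-linked relative Rps4x at 38 (knockout) and 42 (wild type). Rpl10-ps2 held 11 (knockout) and 16 (wild type) and Rpl13-ps1 held 10 (knockout) and 9 (wild type), and these were the other entries with an open region. Reads with a mapping quality under 10 were not counted, so a low count at such a copy need not mean closed DNA.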
